A study of Homo sapiens with 36 samples.

Results

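Cathepsins are the proteases of the lysosome, and cystatins are the small proteins that block many of them. Transcripts of 8 cathepsins (CTSB, CTSC, CTSD, CTSH, CTSK, CTSL, CTSS and CTSZ) and 2 cystatins (CST3 and CSTB) were followed in THP-1 macrophages by RNA sequencing. The genes were taken by symbol through the Entrez identifiers of the deposited table, in which they are 10 of 21599 rows. All 10 passed the filter on low values, as did 21232 rows of the table. THP-1 is an established human monocytic leukaemia line that becomes adherent and macrophage-like when treated with the phorbol ester PMA.

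There were 12 groups of 3 libraries, 36 in all. Cells were wild type (WT) or carried a knockout of IRG1 (KO), the gene now named ACOD1, which encodes the mitochondrial enzyme that makes itaconate. Every group had first been given 100 nM PMA for 72 h, and was then given vehicle or the pair of LPS (200 ng/mL, a bacterial lipid that triggers Toll-like receptor 4) and IFN-γ (200 ng/mL), here called stimulated, for 6, 12 or 24 h. The labels do not say whether the KO cells were 1 clone or a pool, nor whether the 3 replicates of a group were cultured apart. A p-value here therefore reflects the scatter among these libraries, which may be technical. The study's title concerns what itaconate made by macrophages does to cytokine production and ubiquitination, and the comparisons here ask how lysosomal proteases and their inhibitors behaved in the same cells.

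Lysosomal cathepsins are made as inactive precursors, are carried to the lysosome and are activated there at acid pH. CTSB, CTSL, CTSS and CTSK are cysteine endopeptidases, CTSC, CTSH and CTSZ are cysteine exopeptidases that trim protein ends, and CTSD is an aspartic endopeptidase. In antigen-presenting cells they degrade engulfed protein, and CTSS and CTSL cut the invariant chain CD74 that blocks the groove of MHC class II. CST3 (cystatin C) is a secreted inhibitor of cysteine cathepsins and CSTB (stefin B) is a cytosolic one that meets cathepsins when they leak from lysosomes.

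ACOD1 was near 0 in every vehicle library (0.00 to 0.86, log2 scale). It was 9.20 to 12.76 in stimulated WT and 7.98 to 10.22 in stimulated KO libraries, so its transcript was lowered in stimulated KO cells (-3.31 at 6 h and -2.69 at 12 h, limma adjusted p = 3.74e-05 and 0.00087) but still present. At 24 h the difference was -1.48 (adjusted p = 0.0597). The table gives log2 values whose scaling and offset are not stated, so depth is unknown and no counting interval can be given. Library medians lay between 5.4691 and 5.4753. The second stimulated KO library at 6 h and the third stimulated WT library at 24 h were the least like their groups (mean correlation with the others 0.839 and 0.8704, against 0.8905 to 0.9642 elsewhere), and values without both are given where a call changed. The median of each of 10 of 10 monocyte and macrophage markers was over the filter (6.41 to 11.98), against 0 of 2 T cell, 0 of 3 NK cell and 0 of 3 epithelial markers with a row. Also over it were 4 of 5 osteoclast markers, 1 of 3 B cell markers (PAX5, 4.96), 1 of 3 fibroblast markers (COL1A1, 4.18) and 1 of 3 endothelial markers (PECAM1, 7.70, which myeloid cells also express). Their part in the results was not tested. As these are bulk libraries, fewer expressing cells and less RNA per cell cannot be told apart.

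Per kilobase of exon, the most abundant of the 10 transcripts over the 36 libraries were those of CTSZ (mean log2 level per kb 12.6) and CTSD (12.24), followed by the inhibitor CSTB (9.93). CTSL (8.82), CST3 (8.05), CTSS (7.72), CTSH (7.50) and CTSB (7.13) formed the middle. CTSC (6.45) and CTSK (6.14) were lowest. Exon length was the merged length of all exons of a gene's basic transcripts in GENCODE 29, which is newer than the build used for the reads. Such a length can exceed that of the transcript in these cells, and then lowers the value. It was 7639 bases for CTSC and 1495 for CTSZ, so the order depends on this choice. Stimulation and genotype rearranged the middle of this order. In vehicle WT cells CTSS ranked 8 of 10 per kilobase (7.00), and in stimulated KO cells it ranked 4 (8.72). CTSH ranked 6 (7.93) in vehicle WT cells and 10 (6.05) in vehicle KO cells, level with CTSK (6.06).

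CTSK and CTSS lie on chromosome 1, CTSC and CTSD on chromosome 11 and CTSZ and CST3 on chromosome 20, and CTSL, CTSH and CSTB lie on chromosomes 9, 15 and 21. A stretch before the transcription start was found for 6 of the 10 genes (CTSC, CTSD, CTSH, CTSL, CTSZ and CST3) in RefSeq on GRCh38.p14. The 250 bases before the start are printed for CTSL, which was called lower in KO cells in 5 of 6 comparisons, for CTSH, which was called lower in KO cells given vehicle, and for CTSD, which fell early after stimulation. Capitals mark the motif found.
CTSL, chr9:87725869-87726118, plus strand: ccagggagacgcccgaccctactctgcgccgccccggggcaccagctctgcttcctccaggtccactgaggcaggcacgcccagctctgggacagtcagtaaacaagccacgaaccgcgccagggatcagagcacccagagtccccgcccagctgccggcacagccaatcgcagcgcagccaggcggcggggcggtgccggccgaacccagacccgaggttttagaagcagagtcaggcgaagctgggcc
CTSH, chr15:78945047-78945296, minus strand: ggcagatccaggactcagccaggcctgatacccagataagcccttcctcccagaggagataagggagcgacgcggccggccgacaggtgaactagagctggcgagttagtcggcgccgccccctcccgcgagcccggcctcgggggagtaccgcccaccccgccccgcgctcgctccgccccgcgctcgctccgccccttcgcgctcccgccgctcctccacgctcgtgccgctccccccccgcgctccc
CTSD, chr11:1763928-1764177, minus strand: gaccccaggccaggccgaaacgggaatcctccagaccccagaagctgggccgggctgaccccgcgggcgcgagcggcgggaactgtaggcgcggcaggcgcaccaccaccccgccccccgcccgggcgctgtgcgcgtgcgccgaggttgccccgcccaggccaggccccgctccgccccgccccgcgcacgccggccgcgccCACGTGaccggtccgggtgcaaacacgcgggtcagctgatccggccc
Both strands of the window from 250 bases before to 50 bases after the start were searched for 4 motifs. The E-box core CACGTG, the heart of the element read by the lysosomal regulator TFEB and also bound by other factors, was present in the window of 1 of the 6 genes, CTSD, beginning 47 bases before the start, and in 7.3% of 35116 such windows. The STAT element TTCNNNGAA (7.7% of windows), the AP-1 element TGANTCA (7.7%) and the core of the interferon-stimulated response element, GAAA, a pair of any bases, then GAAA (3.6%), were found in 0 of the 6. These are matches of letters, and binding was not measured.

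Genotype was compared first, in vehicle and in stimulated cells. Without stimulation 4 of the 10 transcripts were lower in KO cells at 6 h, 4 at 12 h and 3 at 24 h, and 0 were higher (before adjustment 1, 0 and 0 had p under 0.05). CTSB, CTSH and CTSZ were lower at every time and CTSL at 6 and 12 h. In stimulated cells CTSB and CTSL were lower at each of the 3 times, CTSC was higher at 6 h, and CTSH and CTSZ passed the test at none. As background, the tests called lower in KO 3.91% of the genes tested at 6 h, 2.34% at 12 h and 1.75% at 24 h in vehicle, and 3.86%, 1.68% and 2.46% in stimulated cells. Called higher were 4.28%, 2.9% and 2.23% in vehicle and 4.86%, 1.78% and 3.41% in stimulated cells. The median log2 change of the 10 genes was -0.76, -0.87 and -0.83 in vehicle and -0.47, -0.55 and -0.60 in stimulated cells, and that of all genes tested lay between -0.046 and 0.063. Tests were made with limma over all 36 libraries, with Benjamini-Hochberg adjustment over the 21232 genes and a threshold of 0.05. The comparisons share libraries with one another wherever they share a group, so the values below are given side by side.

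**Figure D1:**
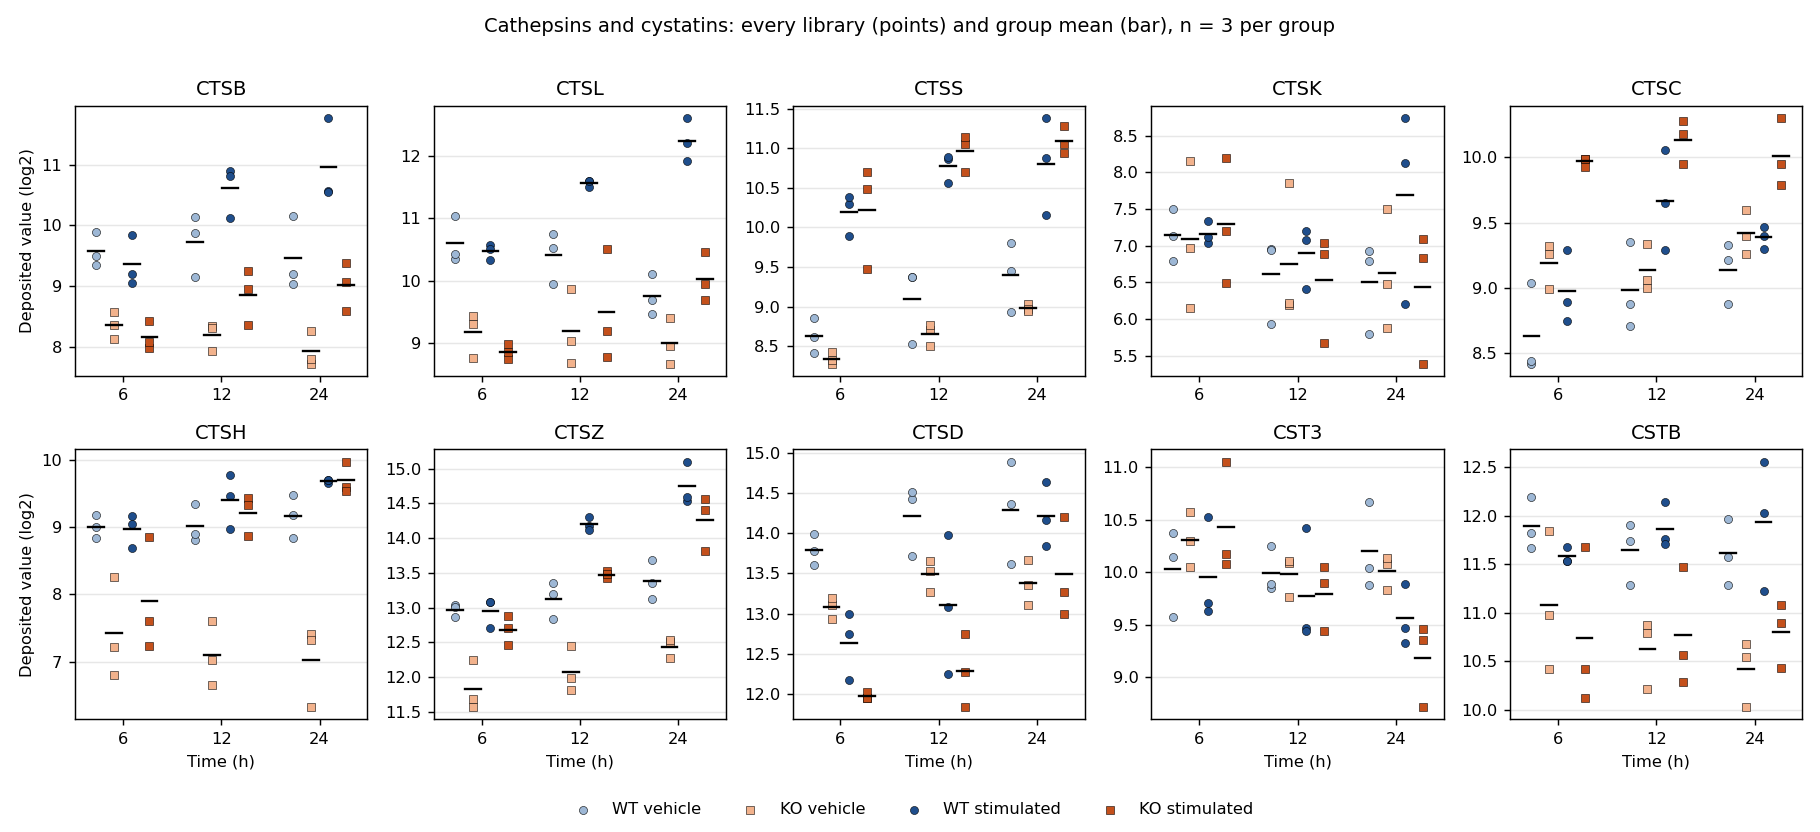
Deposited log2 values of the 10 genes (one panel each, vertical scales differ) in every library by time in hours, with points for libraries and a bar for the mean of each group of 3. CTSB and CTSL squares (KO) lie below the circles (WT) of the same treatment at each time, and the pale CTSH squares (KO vehicle) lie below while the dark ones reach the WT level by 24 h.

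CTSB, an endopeptidase that also removes dipeptides, was lower in KO cells in all 6 comparisons. At 6 h of vehicle it stood at 9.89, 9.35 and 9.49 in WT against 8.14, 8.58 and 8.37 in KO. At 12 h the WT values were 10.13, 9.16 and 9.87 and the KO values 7.93, 8.35 and 8.31. At 24 h WT gave 10.15, 9.04 and 9.20 where KO gave 7.73, 7.80 and 8.26. Each KO library was below every WT library of its time. The log2 changes were -1.22 ± 0.33 (SE), -1.52 ± 0.33 and -1.53 ± 0.33, or 2.32, 2.87 and 2.90-fold lower (adjusted p = 0.0189, 0.00472 and 0.00606). Under stimulation WT reached 11.76, 10.56 and 10.55 at 24 h against 9.07, 8.59 and 9.38 in KO, again without overlap. The stimulated changes were -1.20, -1.75 and -1.95 at 6, 12 and 24 h (each ± 0.33, adjusted p = 0.0211, 0.00192 and 0.000638), the last being 3.85-fold. The call in vehicle at 6 h was lost without WT replicate 1 (-1.06, adjusted p = 0.112), KO replicate 1 (-1.10, 0.0879) or KO replicate 3 (-1.22, 0.057), that in vehicle at 24 h without WT replicate 1 (-1.19, 0.0763) or KO replicate 1 (-1.44, 0.0503), and that in stimulated cells at 6 h without WT replicate 1 (-0.96, 0.142), KO replicate 1 (-1.11, 0.0644) or KO replicate 3 (-1.16, 0.0508). With the spread taken only from the 6 libraries compared, adjusted p was 0.0747 in vehicle at 24 h and 0.136, 0.069 and 0.153 in stimulated cells.

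CTSL, the endopeptidase closest to CTSB in its levels over the groups, showed the largest KO deficit of the 10 genes in stimulated cells at each time. At 24 h the stimulated WT libraries read 12.60, 11.91 and 12.21 and the stimulated KO libraries 9.69, 10.45 and 9.94. At 12 h the WT libraries read 11.60, 11.50 and 11.60 and the KO libraries 8.77, 10.51 and 9.19, so the highest KO library was about 1 log2 unit below the lowest WT library. At 6 h they read 10.57, 10.51 and 10.33 in WT and 8.74, 8.98 and 8.85 in KO. The stimulated groups were separate at each time, with changes of -1.61, -2.08 and -2.21 (each ± 0.34, adjusted p = 0.00253, 0.000393 and 0.000166), that at 24 h being 4.64-fold.

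Without stimulation CTSL narrowed with time. Values at 6 h were 10.34, 10.43 and 11.04 in WT and 8.76, 9.44 and 9.31 in KO. By 24 h WT had 9.46, 10.10 and 9.69 against 8.67, 9.40 and 8.95 in KO. The change was -1.44 at 6 h (adjusted p = 0.00588), -1.21 at 12 h (adjusted p = 0.029) and -0.74 at 24 h (adjusted p = 0.278), and the groups did not overlap at 24 h either. The 6 h call was lost without KO replicate 1 (-1.23, adjusted p = 0.0513). The 12 h call was lost without KO replicate 1 (-0.95, 0.233), WT replicate 2 (-1.04, 0.118), WT replicate 3 (-1.15, 0.107) or KO replicate 3 (-1.13, 0.117). With the spread from the 6 libraries alone it was lost at 12 h in vehicle (0.114) and at 12 and 24 h in stimulated cells (0.084 and 0.0798). CTSL and CTSV are closely related in sequence, and how reads shared by 2 genes were counted is not given in the sources used here.

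CTSH, an aminopeptidase, was called lower in KO cells at each time in vehicle and at no time in stimulated cells. With vehicle for 6 h it stood at 8.83, 9.00 and 9.18 in WT against 6.81, 8.26 and 7.22 in KO. For 12 h the WT values were 8.80, 8.90 and 9.34 and the KO values 6.66, 7.61 and 7.02. For 24 h WT gave 9.18, 8.84 and 9.47 where KO gave 6.33, 7.41 and 7.33. No KO library reached the lowest WT library, and the changes were -1.57, -1.92 and -2.14 (each ± 0.35, adjusted p = 0.00442, 0.00104 and 0.000396), up to 4.40-fold. Stimulated for 6 h, KO gave 7.24, 8.85 and 7.61 against 8.69, 9.17 and 9.05 in WT. Stimulated for 24 h, KO gave 9.60, 9.54 and 9.97 against 9.65, 9.69 and 9.70. These groups overlapped at each time, with changes of -1.07 (adjusted p = 0.0559) at 6 h, -0.19 (0.859) at 12 h and 0.03 (0.983, 95% interval -0.70 to 0.75) at 24 h. Without the second stimulated KO library at 6 h, the one least like its group, the 6 h change was -1.55 (adjusted p = 0.00584, and 0.00612 when the WT library at 24 h was left out too). The vehicle call at 6 h was lost without KO replicate 1 (-1.26, adjusted p = 0.0515) and with the spread from the 6 libraries alone (0.0696).

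CTSZ, a carboxypeptidase, was also lower in vehicle KO cells, by about 1 log2 unit. After 6 h of vehicle WT stood at 13.04, 13.01 and 12.86 and KO at 11.69, 12.24 and 11.57. After 24 h the values were 13.69, 13.12 and 13.35 in WT against 12.50, 12.53 and 12.28 in KO. The groups were separate at 6, 12 and 24 h, with changes of -1.14, -1.05 and -0.95 (each ± 0.22, adjusted p = 0.000987, 0.00308 and 0.0096). Stimulated KO cells read 0.27, 0.73 and 0.48 below WT (adjusted p = 0.488, 0.06 and 0.196), and at 12 h, where the groups did not overlap, adjusted p was 0.0331 with the replicate number as a block. The vehicle call at 24 h was lost without WT replicate 1 (-0.80, adjusted p = 0.0844) or KO replicate 3 (-0.87, 0.0635). With the spread from the 6 libraries alone, adjusted p was 0.0669 at 12 h and 0.0762 at 24 h.

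CTSC, the dipeptidase that activates serine proteases of immune granules, was the only one of the 10 genes called higher in KO cells. At 6 h of stimulation the KO libraries read 9.93, 9.99 and 9.99 and the WT libraries 8.75, 8.89 and 9.29. The groups were far apart, with a change of 1.00 ± 0.21 (1.99-fold, adjusted p = 0.0026, and 0.135 with the spread from the 6 libraries alone). At 12 and 24 h the stimulated changes were 0.47 and 0.62 (adjusted p = 0.236 and 0.0725), and the block gave 0.0197 at 24 h, where 9.79, 9.95 and 10.30 in KO stood above 9.40, 9.47 and 9.30 in WT. In vehicle the changes were 0.56, 0.16 and 0.29, none of them called, and the groups overlapped at each time. At 6 h in vehicle adjusted p was 0.1, and 0.0319 (change 0.76) without WT replicate 3.

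CTSS, CTSK and CTSD passed the test between genotypes at no time. CTSS, which trims the invariant chain, differed by -0.29, -0.43 and -0.41 in vehicle and by 0.03, 0.20 and 0.28 in stimulated cells. Under stimulation its 95% intervals were -0.55 to 0.61 at 6 h, -0.38 to 0.78 at 12 h and -0.29 to 0.86 at 24 h, so a change of 1 log2 unit either way lay outside them. CTSD, the main aspartic protease of the lysosome, was 0.67 to 0.91 lower in KO in all 6 comparisons, with adjusted p of 0.178 to 0.313. Its vehicle groups did not overlap at 6 h (13.99, 13.60 and 13.78 in WT, 12.93, 13.11 and 13.20 in KO) or at 12 h. The stimulated CTSD groups at 6 h were separate too (12.75, 12.17 and 13.00 in WT, 11.95, 11.95 and 12.03 in KO). Leaving out WT replicate 2 of the stimulated 12 h group brought the CTSD change there to -1.24 (adjusted p = 0.0483) from -0.82.

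CTSK, best known as the collagen-degrading protease of osteoclasts, was the least abundant and most scattered of the 10 genes. In stimulated WT cells at 24 h it read 8.74, 6.21 and 8.13, and in stimulated KO cells 5.39, 6.83 and 7.09, so the groups overlapped through 1 WT library. The change was -1.25 (adjusted p = 0.231), and without that library, WT replicate 2, it was -1.99 (adjusted p = 0.0402). Among KO libraries CTSK followed the replicate number. Replicate 3 was above its group mean in 6 of 6 KO groups, by 0.85 on average, and replicate 1 was below in 6 of 6, by 0.83.

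The inhibitors differed from each other. CSTB was lower in KO in all 6 comparisons, by 0.81 to 1.19, and passed the test in none without a block. At 24 h in vehicle it read 11.58, 11.29 and 11.97 in WT and 10.03, 10.54 and 10.68 in KO, groups that did not overlap (change -1.19 ± 0.37, adjusted p = 0.0683). With the replicate block, adjusted p for CSTB was 0.0288 there, 0.0476 in stimulated cells at 12 h and 0.0296 at 24 h. Among KO libraries CSTB replicate 2 was above its group mean in 6 of 6 groups and replicate 1 below. In WT replicate 2 was above in 0 of 6 and replicate 3 in 6 of 6, so the number carried no shared shift of CSTB across genotypes. Single libraries decided its stimulated values: without KO replicate 2 the change was -1.31 at 6 h (adjusted p = 0.0282, and 0.0188 when the WT library at 24 h was also left out) and -1.44 at 12 h (0.0357), and without WT replicate 2 it was -1.49 at 24 h (0.0189). CST3 differed by -0.38 to 0.48, overlapped at every time and was called at none. Its stimulated WT libraries at 6 h read 9.63, 9.71 and 10.52, and those of KO 10.17, 11.05 and 10.08.

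**Figure D2:**
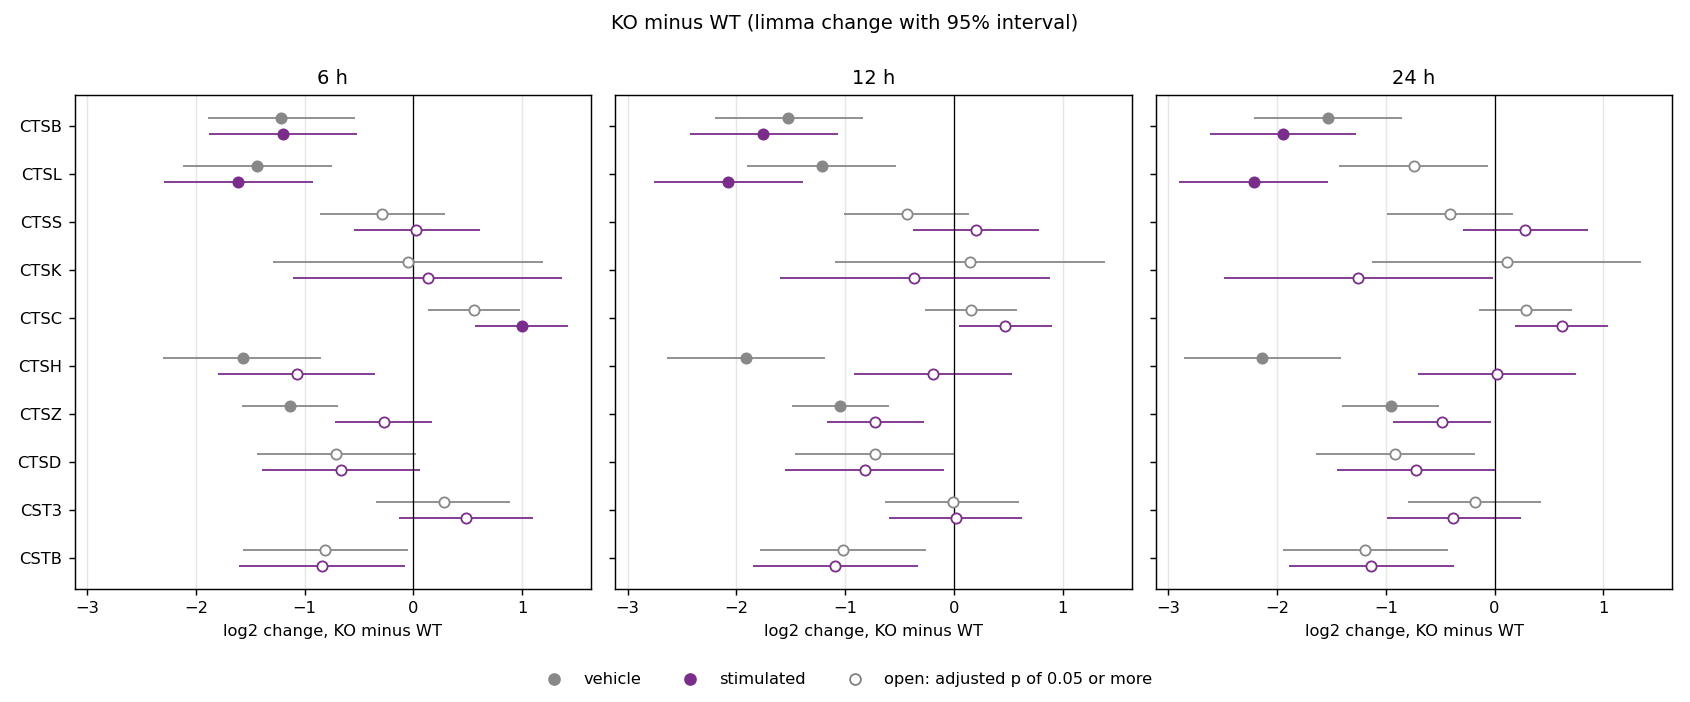
Difference between KO and WT on the log2 scale (horizontal axis) for each gene at 6, 12 and 24 h, with 95% intervals, grey for vehicle and purple for stimulated cells; filled points had an adjusted p under 0.05. CTSB is filled throughout, CTSH moves from -2.14 in vehicle to 0.03 in stimulated cells at 24 h, and CTSC is the gene with a filled point to the right of 0.

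The response to LPS and IFN-γ was compared next, within each genotype. CTSS rose in both genotypes at all 3 times, CTSZ rose in both at 12 and 24 h, and CTSB and CTSL rose in both at 24 h. CTSD fell in both at 6 and 12 h, and CST3 fell in KO at 24 h. In WT cells 1, 5 and 4 of the 10 genes were called higher at 6, 12 and 24 h, against 15.1%, 16.8% and 20.2% of all genes tested, and 1, 1 and 0 lower, against 20.9%, 21.7% and 26.1% (before adjustment 1 was lower at 24 h, CST3). In KO cells 3, 4 and 6 were called higher (16.2%, 15.5% and 17.3% of all genes) and 1, 1 and 1 lower (22.5%, 19.5% and 21.6%). The median change of the 10 was -0.05, 0.54 and 0.85 in WT and 0.16, 0.48 and 0.80 in KO. The median of all genes was between -0.198 and -0.082 in these 6 comparisons.

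CTSS was the 1 gene of the 10 called higher at all 3 times in both genotypes. In WT at 6 h it went from 8.62, 8.41 and 8.85 in vehicle to 10.30, 10.38 and 9.89 in stimulated cells, and in KO from 8.42, 8.28 and 8.32 to 10.70, 9.48 and 10.48. At 24 h the WT libraries went from 9.80, 8.93 and 9.45 to 11.38, 10.88 and 10.16 and the KO libraries from 9.03, 8.97 and 8.94 to 11.05, 10.94 and 11.28. Stimulated and vehicle libraries did not overlap in any of the 6 comparisons. The changes were 1.56, 1.68 and 1.41 in WT and 1.88, 2.31 and 2.11 in KO (each ± 0.28), that is 2.66 to 4.96-fold, with adjusted p from 0.000173 to 1.92e-07.

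CTSZ rose at 12 and 24 h in WT and at all 3 times in KO, where it started lower. WT libraries read 13.08, 13.08 and 12.70 after 6 h of stimulation, overlapping the vehicle libraries, and 15.10, 14.54 and 14.59 after 24 h. KO libraries read 12.71, 12.88 and 12.46 at 6 h, all above the KO vehicle libraries, and 14.40, 13.82 and 14.56 at 24 h. The changes were -0.02, 1.08 and 1.35 in WT (adjusted p = 0.964, 0.000272 and 1.09e-05) and 0.85, 1.40 and 1.82 in KO (0.00263, 9.53e-06 and 1.15e-07). The KO call at 6 h had an adjusted p of 0.0536 with the spread from the 6 libraries alone.

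CTSL and CTSB rose late and reached their highest levels in stimulated WT cells at 24 h. CTSL in WT went from 9.46, 10.10 and 9.69 to 12.60, 11.91 and 12.21 at 24 h, a change of 2.49 ± 0.34 (5.62-fold, adjusted p = 7.77e-07). In KO it went from 8.67, 9.40 and 8.95 to 9.69, 10.45 and 9.94, a change of 1.02 (2.03-fold, adjusted p = 0.0162), so the stimulated KO libraries stayed within the range of vehicle WT or just above it. At 12 h CTSL had risen in WT (1.16, adjusted p = 0.00701) and was not called in KO (0.30, 0.528). The WT call at 12 h was lost without vehicle replicate 1 (0.93, adjusted p = 0.0531), and the KO call at 24 h without vehicle replicate 1 (0.85, 0.0807) or stimulated replicate 2 (0.81, 0.0998).

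For CTSB the change at 24 h was 1.49 ± 0.33 in WT (2.82-fold, adjusted p = 0.000543) and 1.08 in KO (2.12-fold, adjusted p = 0.0103). At 12 h it was 0.89 in WT (adjusted p = 0.035) and 0.66 in KO (0.128), and at 6 h it was -0.21 and -0.20 with overlapping groups. The WT call at 12 h was lost without stimulated replicate 1 (0.74, adjusted p = 0.134), stimulated replicate 3 (0.79, 0.109), vehicle replicate 2 (0.61, 0.202) or vehicle replicate 3 (0.96, 0.0505), and with the spread from the 6 libraries alone (0.0617). The KO call at 24 h was lost without stimulated replicate 3 (0.90, adjusted p = 0.0604).

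CTSH rose in KO cells and passed the test in WT at no time. KO libraries went from 6.66, 7.61 and 7.02 to 8.86, 9.43 and 9.32 at 12 h and from 6.33, 7.41 and 7.33 to 9.60, 9.54 and 9.97 at 24 h, with wide gaps between vehicle and stimulated. These were rises of 2.11 and 2.68 (each ± 0.35, 4.32 and 6.42-fold, adjusted p = 2.73e-05 and 6.46e-07). The same differences were 0.39 and 0.52 in WT (adjusted p = 0.411 and 0.238). At 6 h they were 0.47 in KO (adjusted p = 0.314) and -0.03 in WT (0.962).

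CTSC rose by 0.69 in WT at 12 h (adjusted p = 0.00985) and by 0.78, 1.00 and 0.59 in KO at 6, 12 and 24 h (adjusted p = 0.00372, 0.000366 and 0.025). The WT values at 6 and 24 h were 0.34 and 0.26 (adjusted p = 0.205 and 0.328). The WT call was lost without vehicle replicate 2 (0.55, adjusted p = 0.0646), stimulated replicate 3 (0.49, 0.0893) or with the spread from the 6 libraries alone (0.0739). The KO call at 24 h was lost without vehicle replicate 1 (0.58, 0.0604), vehicle replicate 2 (0.51, 0.0981) or stimulated replicate 3 (0.45, 0.135).

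CTSD was the cathepsin that fell. At 6 h WT libraries went from 13.99, 13.60 and 13.78 to 12.75, 12.17 and 13.00 and KO libraries from 12.93, 13.11 and 13.20 to 11.95, 11.95 and 12.03, without overlap in either. Changes at 6 and 12 h were -1.15 and -1.11 in WT (adjusted p = 0.0123 and 0.0144) and -1.11 and -1.20 in KO (0.0146 and 0.00933), each ± 0.36. By 24 h the stimulated libraries were level with vehicle, at -0.07 in WT and 0.12 in KO (adjusted p = 0.887 and 0.828). The WT calls were lost without stimulated replicate 2 at 6 h (-0.92, adjusted p = 0.0759) and, at 12 h, without stimulated replicate 2 (-0.69, 0.143), vehicle replicate 1 (-1.01, 0.0556) or vehicle replicate 3 (-0.96, 0.0659) or with the spread from the 6 libraries alone (0.0944). The KO call at 12 h was lost without stimulated replicate 1 (-0.97, 0.061).

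Among the inhibitors CST3 fell in KO at 24 h, from 9.83, 10.08 and 10.13 to 9.36, 8.72 and 9.46. The change was -0.83 ± 0.30 (1.78-fold lower, adjusted p = 0.0285). In WT it was -0.63 (adjusted p = 0.0862, 0.0403 with the replicate block, and -0.80 with 0.0368 without the pair of libraries least like their groups). The KO call was lost without vehicle replicate 2 (-0.80, adjusted p = 0.074), vehicle replicate 3 (-0.77, 0.0831) or stimulated replicate 2 (-0.60, 0.172). CSTB changed by -0.34 to 0.39 and was called at no time, nor was CTSK (-0.22 to 1.19). For CTSK in WT at 24 h the value was 1.19 (adjusted p = 0.11), and 1.93 (0.0122) without stimulated replicate 2.

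**Figure D3:**
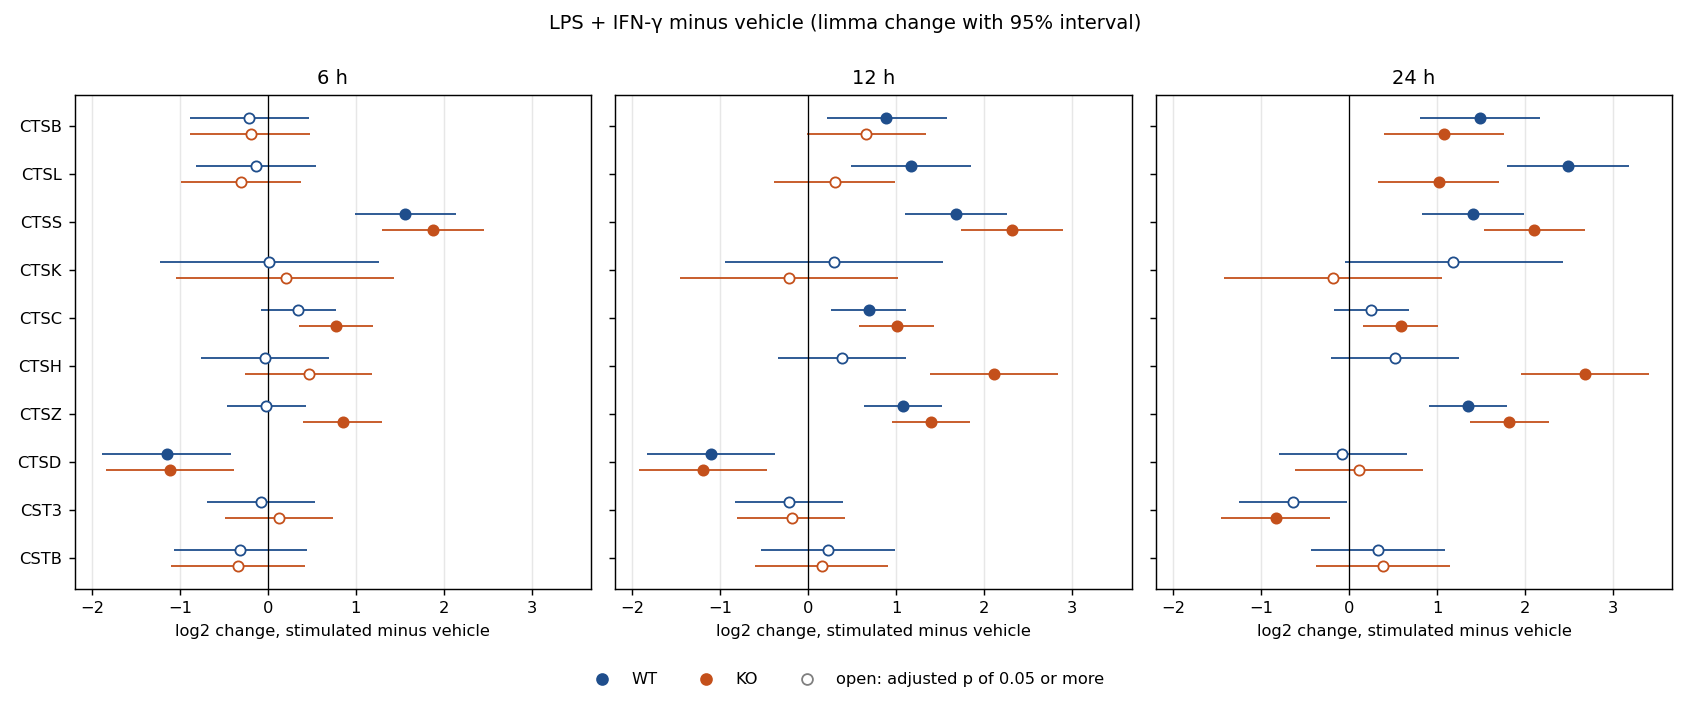
Difference between stimulated and vehicle cells on the log2 scale (horizontal axis) for each gene at 6, 12 and 24 h, with 95% intervals, blue for WT and orange for KO; filled points had an adjusted p under 0.05. CTSS is to the right in both genotypes throughout, CTSD is to the left at 6 and 12 h and at 0 by 24 h, and CTSH at 24 h is at 2.68 in KO and 0.52 in WT.

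Whether the response itself differed between genotypes was tested as an interaction, the KO response minus the WT response. CTSH passed at 24 h, with 2.16 ± 0.50 (95% interval 1.14 to 3.19, limma adjusted p = 0.0474), and was the only one of the 10 genes called. No member was called at 6 or 12 h. Before adjustment limma put 1 under 0.05 at each of these times, CTSZ at 6 h (0.87, adjusted p = 0.329) and CTSH at 12 h (1.72, adjusted p = 0.204, and 0.0425 with the replicate block). Few genes of the table passed this test: 0.283%, 0.0612% and 0.174% were called higher at 6, 12 and 24 h, and 0.17%, 0.0989% and 0.259% lower. For CTSL the response at 24 h was smaller in KO by 1.47 ± 0.47 (adjusted p = 0.166), which did not pass. The interaction values of CTSB, CTSD, CST3 and CSTB lay between -0.41 and 0.20.

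The CTSH call stood just inside the threshold. It was lost when only genes above the median level were tested (adjusted p = 0.0764), without a mean-variance trend (0.0514), and with the spread from the 12 libraries compared (0.0921), at the same 2.16. Leaving out WT vehicle replicate 1, 2 or 3 gave 2.15, 2.32 and 2.01 (adjusted p = 0.102, 0.0501 and 0.12), and WT stimulated replicate 1, 2 or 3 gave 2.15, 2.17 and 2.17 (0.0744, 0.0502 and 0.0898). It was 1.82 and 2.31 without KO vehicle replicates 1 and 3 (0.166 and 0.0825) and 2.21 and 2.03 without KO stimulated replicates 1 and 3 (0.106 and 0.128).

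Time was compared within each of the 4 combinations of genotype and treatment, 24 h against 6 h. In stimulated WT cells 4 of 10 rose (10.8% of all genes were called higher, 12% lower): CTSZ by 1.79, CTSL by 1.77, CTSB by 1.59 and CTSD by 1.58 (adjusted p = 1.32e-06, 0.000332, 0.000881 and 0.00189), with 0 lower. In stimulated KO cells 5 rose and 1 fell (14.5% and 13% of all genes). CTSH rose by 1.81, CTSZ by 1.58, CTSD by 1.52, CTSL by 1.17 and CTSS by 0.87 (adjusted p = 0.000434, 6.86e-06, 0.00236, 0.0106 and 0.0222), and CST3 fell by 1.25 (0.00285), from 10.17, 11.05 and 10.08 to 9.36, 8.72 and 9.46. CTSB in stimulated KO cells was at 0.85 (adjusted p = 0.0564), and at 1.06 (0.0411) without 24 h replicate 2.

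Some of these calls rested on single libraries. The CTSS rise in KO was 0.50 (adjusted p = 0.208, and 0.136 when the WT library at 24 h was left out too) without the second KO library at 6 h, which read 9.48 where the others read 10.70 and 10.48, and 0.78 (0.0789) without 24 h replicate 3. In WT the CTSS value was 0.62 (adjusted p = 0.117), and 0.94 (0.0227, or 0.00598 without both libraries least like their groups) without 24 h replicate 3. The CTSL rise in KO was 0.95 (0.0682) without 24 h replicate 2. With the spread from the 6 libraries alone, adjusted p was 0.0585 for CTSB in WT, and 0.0532, 0.175 and 0.0788 for CTSD, CTSS and CST3 in KO.

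In vehicle 0 of the 10 genes were called between 6 and 24 h in either genotype (limma, adjusted). Before adjustment 3 were under 0.05 in WT, CTSS (0.77), CTSL (-0.86) and CTSC (0.51), with adjusted p of 0.539, 0.625 and 0.679. In KO there were 2, CTSZ (0.60) and CTSS (0.64), with adjusted p of 0.266 and 0.451. Of all genes, 0.00942% were called higher and 0.0801% lower in WT vehicle, and 0.226% and 0.608% in KO vehicle.

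Ordered by mean over the 12 groups, CTSB, CTSL, CTSZ, CTSK and CSTB were each highest in stimulated WT cells at 24 h (10.96 ± 0.69, 12.24 ± 0.35, 14.74 ± 0.31, 7.69 ± 1.32 and 11.94 ± 0.67, SD, n = 3). CTSH and CTSS were highest in stimulated KO cells at 24 h (9.71 ± 0.23 and 11.09 ± 0.18) and CTSC at 12 h (10.14 ± 0.17). CTSD was highest in vehicle WT cells at 24 h (14.29 ± 0.64) and lowest in stimulated KO cells at 6 h (11.98 ± 0.05). The lowest means of CTSB, CTSH and CSTB were those of vehicle KO cells at 24 h (7.93 ± 0.28, 7.02 ± 0.60 and 10.42 ± 0.34). Neighbours in these orders mostly overlapped. Of the 11 neighbouring pairs of groups, 2 had library ranges that did not overlap for CTSL, 2 for CTSS and 1 for CTSZ, and 0 for the other members.

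Levels of proteases and inhibitors were also set against each other within each library, as a log2 difference. It cancels a scale factor common to all genes of a library but not gene length, so that only changes in it are read. A scaling that varied with level would not cancel, and the scaling used is not stated. CTSS minus CST3 at 24 h was -0.23, -0.95 and -1.23 in WT vehicle and 2.05, 1.41 and 0.27 in WT stimulated libraries. In KO it was -0.80, -1.11 and -1.19 in vehicle and 1.68, 2.22 and 1.82 under stimulation. Each stimulated library was above each vehicle library at 24 h in both genotypes, and the means went from -0.80 to 1.24 in WT and from -1.03 to 1.90 in KO. At 6 h of stimulation the second KO library stood at -1.57, below the other stimulated KO libraries at 0.53 and 0.39 and next to the highest KO vehicle library at -1.62.

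CTSL minus CSTB in stimulated cells did not overlap between genotypes at any of the 3 times. At 24 h it was 0.57, 0.68 and -0.35 in stimulated WT and -0.75, -0.63 and -0.96 in stimulated KO, and at 6 h the nearest libraries were -1.35 in WT and -1.38 in KO. Vehicle values were separate too at 6 h, with -1.33, -1.39 and -1.15 in WT and -1.66, -2.40 and -1.67 in KO. They overlapped at 24 h, with means of -1.86 ± 0.59 in WT and -1.41 ± 0.30 in KO (SD, n = 3). CTSL minus CST3 at 24 h was 3.27, 2.44 and 2.32 in stimulated WT and 0.32, 1.73 and 0.47 in stimulated KO, again without overlap, and in vehicle at 6 h it was 0.20, 0.86 and 0.67 in WT and -1.29, -1.13 and -0.99 in KO. In vehicle CTSL minus CST3 overlapped between genotypes at 12 and 24 h. CTSB minus CSTB, in which both members were lower in KO, had vehicle means at 24 h of -2.15 ± 0.67 in WT and -2.49 ± 0.23 in KO. Under stimulation at 24 h they were -0.98 ± 0.91 in WT and -1.79 ± 0.61 in KO, with overlap. At 12 h CTSB minus CSTB did not overlap between genotypes. Its means there were -1.92 in WT and -2.43 in KO in vehicle, and -1.26 and -1.92 under stimulation. The nearest stimulated libraries at 12 h were -1.59 in WT and -1.61 in KO. These differences were not tested.

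**Figure D4:**
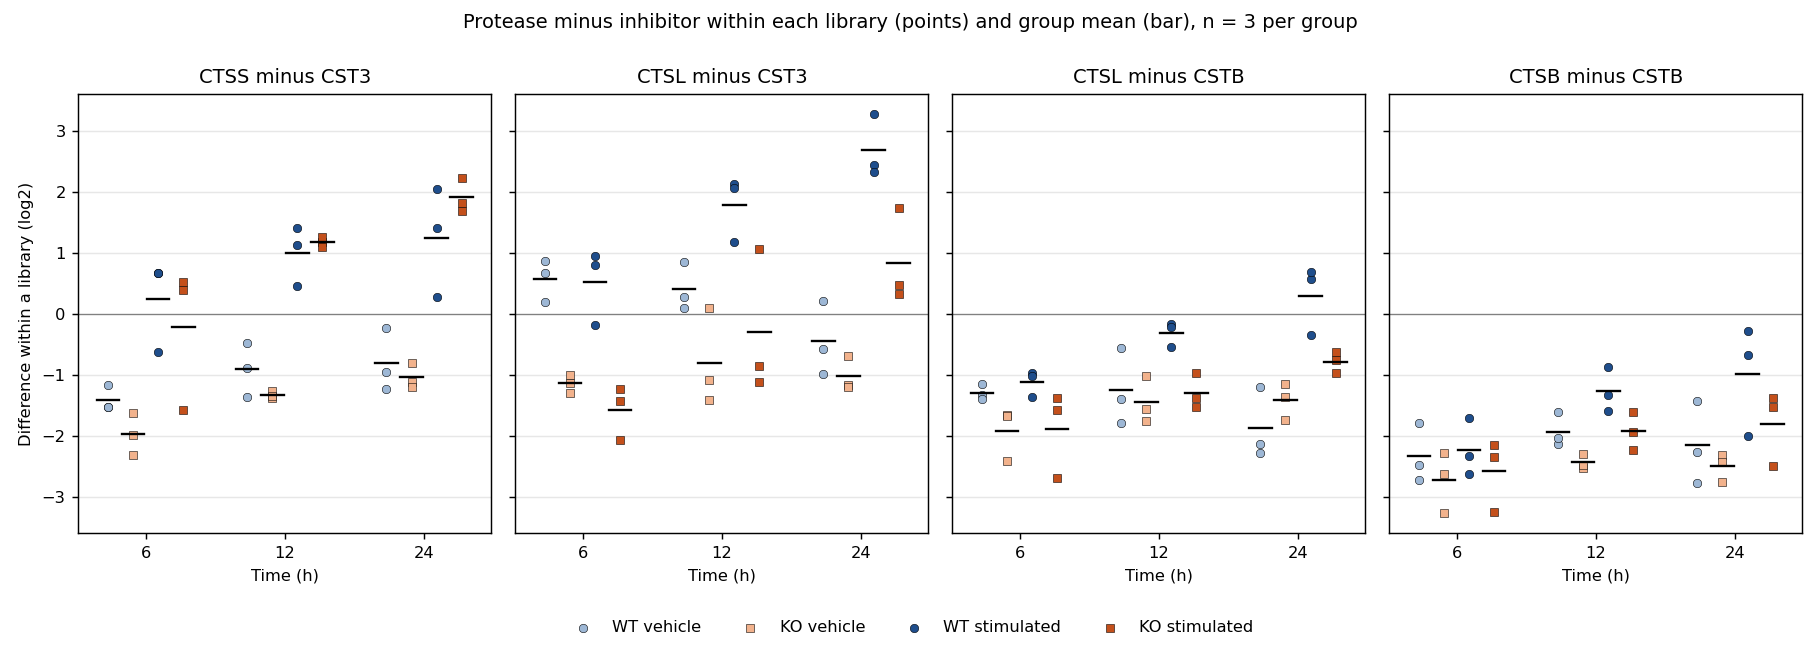
Log2 difference between a cathepsin and a cystatin in the same library (vertical axis) by time in hours, with points for libraries and a bar for the mean of each group of 3. At 24 h CTSS minus CST3 is higher in stimulated than in vehicle libraries of both genotypes, and CTSL minus CSTB is higher in stimulated WT (mean 0.30) than in stimulated KO (-0.78); the line at 0 has no meaning of its own, as gene lengths differ.

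Over the 12 group means, CTSB and CTSL were each other's closest match among 8840 genes of at least median level (Pearson r = 0.968, a description over 12 points that share genotype, treatment and time). CTSB and CSTB correlated at 0.892 and CTSH and CTSZ at 0.883. CTSZ and CST3 ran opposite, at -0.745. Among the genes most like CTSS were SNX20 (0.986) and GCA (0.982). Those most like CTSD were NCOR1 (0.973), RRAGD (0.97) and EVI2B (0.965), and those most like CTSH were TM2D2 (0.954), CHMP2B (0.949) and TRPS1 (0.946). CTSK had the weakest best match (CAHM, 0.848).

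Other members of the same families gave the members a setting. Of 7 further cathepsins tested (CTSA, CTSE, CTSF, CTSG, CTSO, CTSV and CTSW), 0 were called between genotypes in any of the 6 comparisons by limma (before adjustment at most 1 higher and 2 lower had p under 0.05 in a comparison). Among 7 genes the shares of all genes called between genotypes would also give under 1 in each direction. Stimulation raised 0 of them (before adjustment up to 2). It lowered CTSV in WT at 24 h (-2.85, adjusted p = 0.00108) and in KO at 12 h (-2.56, 0.00393), where 26.1% and 19.5% of all genes were called lower. At 24 h in KO it lowered 2, CTSV (-3.82) and the granule protease CTSG (-3.87, adjusted p = 8.05e-05). There 21.6% of all genes were called lower, so a count of 2 of 7 was near that share. Of 13 further cystatins and cathepsin-inhibiting serpins 8 were tested, and stimulation raised 6, 5 and 2 of them in WT at 6, 12 and 24 h and 5, 3 and 2 in KO. Of all genes, 15.1%, 16.8% and 20.2% rose in WT and 16.2%, 15.5% and 17.3% in KO. The counts at 24 h were near those shares. SERPINB9, a granzyme inhibitor, rose by 6.88, 6.05 and 4.53 in WT. SERPINB4, a cathepsin inhibitor that is nearly identical in sequence to SERPINB3, rose by 6.96 in WT and 2.67 in KO at 6 h and differed between stimulated KO and WT by -4.43 (adjusted p = 8.81e-05). Reads of that pair may have been split between them.

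CTSS and CTSL act with the invariant chain, and of 8 partners in class II processing 4, 5 and 5 rose with stimulation in WT and 7, 8 and 7 in KO, with 0 lower (before adjustment 1 lower, in WT at 24 h). Of all genes, 15.1% to 20.2% rose in WT and 15.5% to 17.3% in KO. For the interaction 0 of the 8 were called at any time, so a genotype difference in this response was not shown. That count says little, as 0.283%, 0.0612% and 0.174% of all genes were called higher at 6, 12 and 24 h. Before adjustment limma put 2, 4 and 6 of the 8 under 0.05 at these times, all with a larger response in KO. The list medians were 1.23, 1.34 and 1.58, against -0.004, 0.055 and 0.084 for all genes. CD74 itself rose by 2.46 in WT and 4.50 in KO at 24 h, when it was 1.22 higher in stimulated KO. Of 7 tested serine proteases that are known to be activated by CTSC, 4 were higher in stimulated KO at 6 h (4.86% of all genes were), and 0 at 12 and 24 h. In vehicle 1 of the 7 was higher in KO at each time, against 4.28%, 2.9% and 2.23% of all genes. In stimulated KO cells 6 of the 7 fell from 6 to 24 h, against 13% of all genes. Any part of CTSC in these changes was not tested. Among those higher in stimulated KO at 6 h, GZMM was higher by 4.63 and GZMA by 2.72. Of the 4 MiT/TFE factors, which drive lysosomal genes, TFEB was higher in stimulated KO by 1.45, 1.60 and 1.74 at 6, 12 and 24 h and was called at each time. MITF was lower in stimulated KO at 6 h (-2.44, adjusted p = 0.0102) and TFEC in vehicle KO at 6 h (-1.26, 0.00305). In vehicle at 6 h limma called 2 of the 4 lower in KO, against 3.91% of all genes. MITF was not among these 2 (-1.66, adjusted p = 0.0908). MITF fell with stimulation in both genotypes at every time (-1.54 to -2.51) and TFEC rose (2.34 to 3.03).

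Counts for other lysosomal genes between genotypes were near the share of all genes called (1.68% to 3.91% lower and 1.78% to 4.86% higher), so they say little about these lists. Of 29 other lysosomal hydrolases and membrane proteins tested, 0 were higher and 0 to 2 lower in KO in any of the 6 comparisons (before adjustment up to 2 higher and 5 lower). For 13 genes of tagging and sorting the count lower was 0 or 1, and for 16 subunits of the vacuolar proton pump it was also 0 or 1, with 0 higher in either (before adjustment up to 3 and 4 lower, and 2 and 0 higher). The medians of these lists between genotypes lay from -0.32 to 0.31. Between 6 and 24 h of stimulation 6 of the 16 pump subunits rose and 1 fell in WT, and 8 rose and 0 fell in KO. The shares of all genes called over the same interval were 10.8% higher and 12% lower in WT and 14.5% and 13% in KO. Of the 29 hydrolases and membrane proteins 4 rose and 2 fell in WT and 6 rose and 1 fell in KO, near those shares.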

How the data were processed

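Libraries were made from total RNA with an rRNA-depletion kit, per the labels' protocols. Per the submitters' processing notes, cutadapt 1.9.1, GSNAP and GRCh37.p5 were used; counter, annotation and scaling are not given in the sources used here. The authors deposited 1 table of log2 values with Entrez identifiers for 36 libraries, all of whose columns matched a sample (0 unmatched). Of 21599 rows, 20609 had a symbol in the gene table used here and 990 did not. From it were computed the fits (R 4.3.3, limma 3.58.1, lmFit and eBayes with trend, 12 group means, no block, two-sided, Benjamini-Hochberg, 0.05). Genes were tested where at least 3 libraries reached log2 of 10 (3.32), which left 21232. No count test could be made, and no pseudocount was added.

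The members and lists were chosen with earlier results of these data known. Every member is described. From each list, at most 3 genes called in a genotype or stimulation comparison were eligible for naming, those with the largest change; the 3 closest matches of each member were taken over group means, and only some of them are reported here. Data of 21232 genes were simulated for KO against WT, vehicle, 12 h. Of genes shifted by 1 log2 unit 13 of 100 were recovered, and of those shifted by 2 66 of 100, with 1 false call. Shifts of 1 were thus often missed there. No other genes were shifted, whereas 616 genes were called higher and 496 lower in the real comparison. The adjustment is stricter where few genes change, so these shares need not hold for the real data.

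Replicate numbers in the titles are shared by all groups. Same-numbered libraries deviated together (every pair's r over 0.1) in 12 of 16 comparisons (pair r from -0.15 to 0.589), but not for KO stimulated against vehicle at 24 h, KO against WT at 6 h (vehicle or stimulated) or 24 h against 6 h in stimulated KO. Alternatives were another filter or none, a pseudocount of 5, quantile normalization, no trend, only the libraries compared, the block, and each library left out. Promoter windows came from RefSeq (GRCh38.p14) by symbol; those of CTSB, CTSK, CTSS and CSTB, and protein sequences, were not used here.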

Additional observations from a re-analysis of the deposited data

Results flagged for a closer look

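The response of CTSH to LPS and IFN-γ differed between genotypes at 24 h: the KO response exceeded the WT response by 2.16 on the log2 scale (limma interaction, adjusted p = 0.0474). Stimulation raised CTSH by 2.68 in KO and the WT value was 0.52. Among the 10 genes and 3 times it was the 1 interaction called, and the adjusted p is close to the threshold. The call was lost in 10 of 12 fits that left out a library, with the stricter filter (adjusted p = 0.0764), without the trend (0.0514) and with only the libraries compared (0.0921).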

How the results depend on the processing

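Depth is unknown and 3 libraries a group limit precision. Changes of 1 log2 unit were often missed in simulated data, in which fewer genes changed than in the real comparison. Of 2730 recomputed changes of single members, 2633 kept their side of the threshold with no called sign change, 73 lost and 24 gained a call, and 0 called changes reversed; 109 changes that were not called turned sign, 104 of them with a library left out. No filter, a pseudocount of 5 and quantile normalization changed none of 190 calls each. The deposited libraries already had nearly the same distribution, with 88.0% of ranks spread by less than 0.1 between them. The lowest value of any member was 5.39, against a filter of 3.32. These settings could therefore move member values little, and the unchanged calls say little about robustness.

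With only the libraries compared, 3 members were called in WT stimulated against vehicle at 12 h (6 in the joint fit). In KO against WT vehicle at 12 and 24 h, 2 and 1 were called (4 and 3). Stimulated KO against WT gave 1, 0 and 0 at 6, 12 and 24 h (3, 2 and 2). There were 0 for the interaction at 24 h (1) and 3 for 24 h against 6 h in stimulated KO (6). Over all 21232 genes tested, this setting called 7706 in WT at 12 h and 562 and 284 in vehicle. It called 111, 47 and 3 in stimulated KO against WT, 4 for the interaction and 1394 for time in stimulated KO. The joint fit called 724 higher and 523 lower in stimulated cells at 24 h, so the counts of 0 say little about the members. The interaction count at 24 h was also 0 with the stricter filter and without the trend; the cause was not tested. Without the pair of libraries least like their groups, an alternative chosen after seeing the data, 5 members were called in KO against WT stimulated at 6 h. Over all genes tested 1773 were called there, where the joint fit called 1031 higher and 819 lower.

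With the replicate block, 4 members were called in KO against WT stimulated at 12 h, 4 at 24 h, and 1 (CTSH) for the interaction at 12 h. Over all genes tested it called 1504, 2464 and 115 in these comparisons. Without it 377, 724 and 13 were called higher and 356, 523 and 21 lower. The member counts thus rose along with those of all genes. The block ended no call and gave 10; 3 of these are in comparisons whose numbers did not pair, CTSC in vehicle at 6 h (adjusted p = 0.0292), CTSH in stimulated cells at 6 h (0.0107) and CTSB for 24 h against 6 h in stimulated KO (0.0418).

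Leaving out each library in turn, the number called ranged from 1 to 2 for WT stimulated against vehicle at 6 h, 1 to 5 and 1 to 3 for KO against WT vehicle at 6 and 24 h, 2 to 5 and 2 to 4 for KO against WT stimulated at 6 and 24 h, and 0 to 1 for the interaction at 24 h. The count of 1 in vehicle came without KO replicate 1 at 6 h and without WT replicate 1 at 24 h, that of 5 in stimulated cells at 6 h without KO replicate 2, that of 4 at 24 h without WT replicate 2, and that of 1 in WT at 6 h without stimulated replicate 2.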
